A study of Macaca mulatta with 27 samples.

Results

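The count table of primed rhesus PSCs holds 6 columns with 2 letters in their names, 3 libraries lettered J and 3 lettered K, out of 27 libraries in the whole series. These 6 columns were compared with each other over all genes to learn which genes vary between primed cultures, and whether these are genes that the naive-state protocols move. The members were chosen by column name only. In the labels the 6 libraries are primed cells. Their titles sort them into sets that the protocol field numbers differently for 2 libraries, and nothing ties a letter to a set. A letter therefore stands for a group of libraries of unknown common origin, which may or may not be separate cultures. A line, passage, day or library batch that differs between the letters cannot be told apart from any other such difference.

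Primed PSCs are the self-renewing counterpart of the epiblast around gastrulation. They depend on FGF2 and activin signalling, express POU5F1, SOX2 and NANOG, and form flat epithelial colonies held together by E-cadherin. Cultures of primed cells are known to differ in imprinted genes and in their readiness to differentiate.

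The study worked with embryo-derived rhesus cells of the LyonES line. Its reprogramming was described for LyonES-tGFP-(S3), 1 clone that carries tauGFP under the ubiquitous CAG promoter and a lentiviral STAT3-ERT2, a fusion of STAT3 with a ligand-binding part of the estrogen receptor that tamoxifen activates. The labels name rhesus ESCs and no line, so the line, transgenes and passage of each letter are not known. The other libraries, 3 for each of 7 protocols (LCDM (EPS), TL2i, TL-CDK8i, 4i/L/b, E-NHSM, t2iLGöY and NHSM-v), are used here only to place the primed libraries. TL2i and TL-CDK8i include tamoxifen.

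Total counts were 7111886 to 9466679 in the J libraries and 11745664 to 15183387 in the K libraries, so that depth and letter cannot be told apart. J3 stood apart from the other 5 libraries. Of the 12559 genes tested, 635 had no count in J3, against 64 to 227 in the others. The root mean square difference in log2 CPM, counts scaled to library size, was 1.14 to 1.22 in the 5 pairs with J3. Without J3 it was 0.677 to 0.814 in 4 pairs of the same letter and 0.749 to 0.898 in 6 pairs of different letters, so that these ranges overlapped. Levels below are CPM on 1 scale for all 27 libraries, and the primed libraries are listed as J1, J2, J3 and K1, K2, K3. Both letters had the markers of pluripotent cells. POU5F1 was 1200, 1200 and 1300 CPM in J and 1150, 1100 and 1140 CPM in K, and NANOG was 120, 157 and 107 CPM in J and 146, 125 and 149 CPM in K.

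By edgeR's quasi-likelihood test, 469 of the 12559 genes (3.73%) differed between the letters at a Benjamini-Hochberg adjusted p below 0.05. Of these, 255 (2.03% of genes tested) were higher in K and 214 (1.7%) were lower. The differences were mostly small. The median absolute log2 fold change of the called genes was 0.64, and 89 genes changed by 1 or more, 25 upwards and 64 downwards. With upper-quartile scaling, 214 of 483 calls were higher in K (44.3%, against 54.4%), and the median log2 fold change over all genes moved to -0.03. The libraries of the letters did not overlap in 467 of the 469 genes, against 23.3% of all genes tested. After every library was thinned to the depth of J3, a step chosen after seeing the data, 462 genes were called, of which 423 were among the 469. The count was 298 without J1, 266 without J2, 595 without J3, 264 without K1, 187 without K2 and 184 without K3. Of the 92 called genes that were selected for description, 41 kept the call in every alternative that was run gene by gene and tested them. A minimum log2 fold change of 1 is not among these and would drop the smaller changes. At an unadjusted p under 0.05, 2142 genes (17.1%) differed, 9.2% higher and 7.85% lower in K, which is the background for the unadjusted counts in the lists below.

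ESR1, the estrogen receptor alpha gene, was the largest of the 12 main rises. It was 0, 0.863 and 0 CPM in J and 355, 399 and 358 CPM in K. The 3 J libraries held 8 counts in all, and the ratio of K to J was 1170 with an exact Poisson interval of 593 to 2710, which covers counting error only. The other rises were much smaller. TEK, the angiopoietin receptor, was 7.15, 15.9 and 5 CPM in J and 63.6, 50.3 and 46.1 CPM in K (log2 fold change 2.49 ± 0.32 SE, adjusted p = 0.00032). Of the 9 tested genes of the blood and endothelium list it was the only one called by edgeR, which called 3.73% of all genes tested. DESeq2 called 1 of the 9 higher and 1 lower. The summed level of that list was 140 to 154 CPM in J and 177 to 206 CPM in K. TEK alone made up 5 to 15.9 CPM of this sum in J and 46.1 to 63.6 CPM in K. PTPRC, GATA1 and LYZ were at or under 3 counts in all 6 libraries. SALL3, a zinc-finger transcription factor, rose by a log2 fold change of 1.58 (adjusted p = 0.0005), and ABCA1, the cholesterol exporter, by 1.39 (adjusted p = 2.6e-05). ID4, NAV3, LFNG, GNAI1, LMOD1, ZNF483, LRRN3 and the gene of carboxypeptidase M rose by 1.39 to 1.66 on the log2 scale. The calls of ID4, NAV3, LFNG, GNAI1, ZNF483 and LRRN3 were lost when at least 1 library was left out.

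NNAT, an imprinted gene expressed from the paternal allele, led the main falls. It was 231, 199 and 184 CPM in J and 20.8, 15.5 and 20 CPM in K, which is 11-fold lower (log2 fold change -3.46 ± 0.15 SE, adjusted p = 3e-10). S100A4, a calcium-binding protein of motile cells, was 91.2, 88.5 and 140 CPM in J and 18.1, 13.5 and 19.9 CPM in K. By the rule that chose the main falls, the letters did not overlap for either gene. TCN2, the vitamin B12 carrier transcobalamin, ARHGEF19, and HPN, the membrane protease hepsin, had log2 fold changes of -2.31, -2.16 and -2.01. ARFRP1, CCDC17, EFNA4, CCDC80, NFIX and CORO6 had values between -1.80 and -1.53. The symbol MIR214 decreased by 2.39, but counts of poly(A) RNA at that symbol do not measure the mature miRNA. The calls of ARFRP1, EFNA4, CCDC80 and NFIX were lost when at least 1 library was left out. CER1, a secreted antagonist of Nodal and BMP, fell more but lay below the mean level required of the main falls, with 14.2, 42.7 and 56.6 CPM in J and 1.54, 1.38 and 2.22 CPM in K (log2 fold change -4.47, adjusted p = 2.4e-05). Of 9 tested endoderm genes it was the only one called by edgeR, which called 1.7% of all genes tested lower. DESeq2 called 2 of the 9, both lower.

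**Figure D1:**
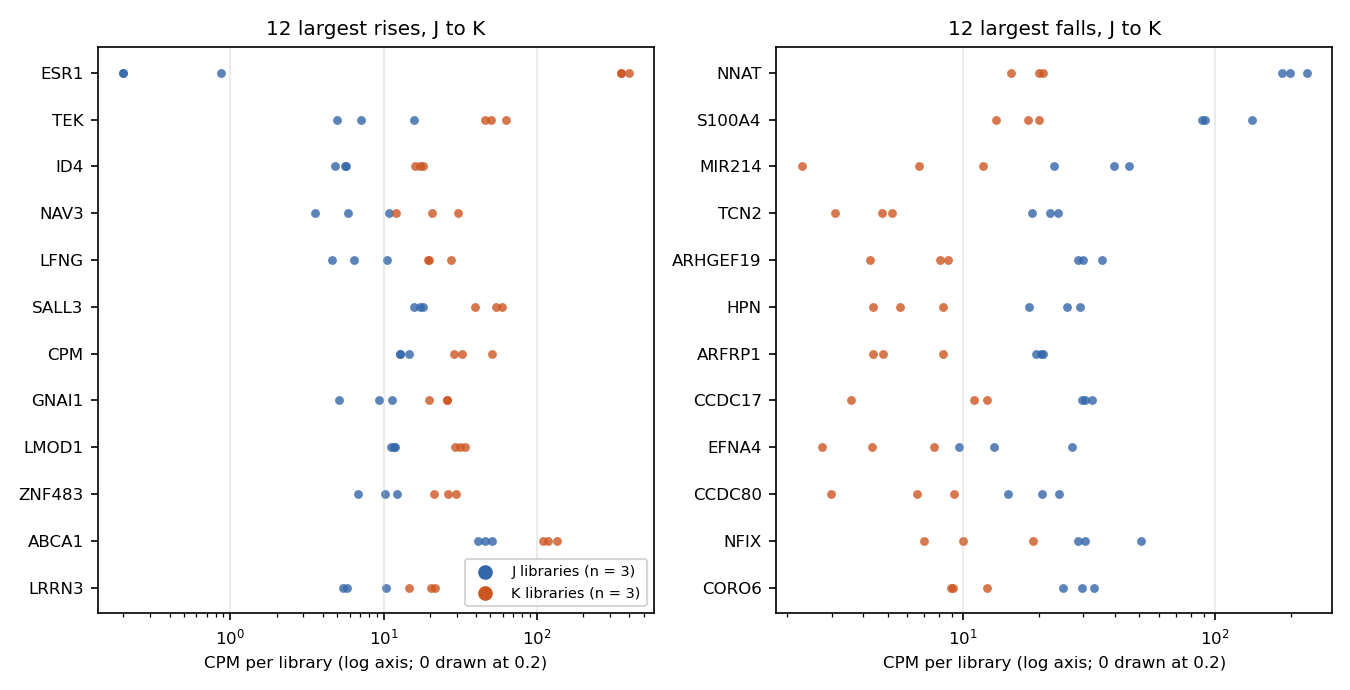
Levels in each primed library of the 12 genes with the largest rise and the 12 with the largest fall from J to K, in CPM on a log axis (blue, J; orange, K; 1 point a library). By the rule that chose them the letters do not overlap; ESR1 goes from at most 0.863 to at least 355 CPM, whereas most other genes move by a few fold.

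For 7 called genes, every library of 1 letter was at or under the floor of 3 counts. They were named after their values were seen. ZNF560, a zinc-finger gene, had 0 counts in J and was 29.8, 36.8 and 31.8 CPM in K, at least 276-fold higher with a floor of 3 counts over the 3 J libraries. GRHL2, a transcription factor of epithelial cells, was 16.8, 31.9 and 25.4 CPM in J and had 0 counts in K, at least 308-fold lower. HKR1 and KRBOX4, both of the Krüppel zinc-finger kind, were 27.9, 31.8 and 18.4 CPM and 19, 11.7 and 17.1 CPM in J. In K, HKR1 had 1 count, a ratio of J to K of 975 with an exact Poisson interval of 175 to 38500. KRBOX4 had 0 counts in K and was at least 199-fold lower. HRASLS, a phospholipid-metabolizing enzyme, was at least 163-fold lower in K, with 12.8, 13.9 and 12.4 CPM in J. CTSO, a lysosomal cysteine protease, and CDH12, a cadherin, were at 3.14 to 6.69 CPM and 2.9 to 3.14 CPM in J and had 0 counts in K, and both calls were lost when a library was left out.

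The same genes were at or near 0 in some protocols and detected in others. KRBOX4, HRASLS and CTSO had 0 counts in NHSM-v and t2iLGöY, and 0 to 2 counts over the 3 libraries of 4i/L/b. They were detected in E-NHSM, TL2i, LCDM (EPS) and TL-CDK8i, where KRBOX4 was 7.06 to 19.4 CPM. HKR1 was 27.2 to 29.1 CPM in E-NHSM and at most 0.926 CPM in NHSM-v, 2.6 CPM in 4i/L/b and 3.4 CPM in t2iLGöY. CDH12 did not share this pattern, with 2.93 to 5.07 CPM in t2iLGöY and at most 0.754 CPM in E-NHSM. GRHL2 was 26.1 to 30.7 CPM in E-NHSM, 3.75 to 5.77 CPM in TL2i and 1 to 5.16 CPM in TL-CDK8i, and it was at most 0.677 CPM in the other 4 protocols. NNAT was 179 to 190 CPM in E-NHSM and 453 to 462 CPM in LCDM (EPS), 86.9 to 109 CPM in TL2i and TL-CDK8i, and 4.29 to 11.7 CPM in NHSM-v, 4i/L/b and t2iLGöY. ZNF560 was at most 8.19 CPM in any protocol library, so that its level in K was above all of them.

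ESR1 also varied among the protocols. It was 1180 to 1280 CPM in NHSM-v, 727 to 791 CPM in 4i/L/b, 350 to 413 CPM in t2iLGöY and 226 to 232 CPM in TL2i. It was at most 0.612 CPM in E-NHSM and 0.379 CPM in LCDM (EPS), and 35, 0.111 and 0.483 CPM in TL-CDK8i libraries 1, 2 and 3. Counts by symbol do not tell reads of the gene ESR1 from reads of a transgene that holds part of an estrogen receptor, and whether the J cultures carried STAT3-ERT2 was not tested. The same holds for STAT3, the other part of that transgene.

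**Figure D2:**
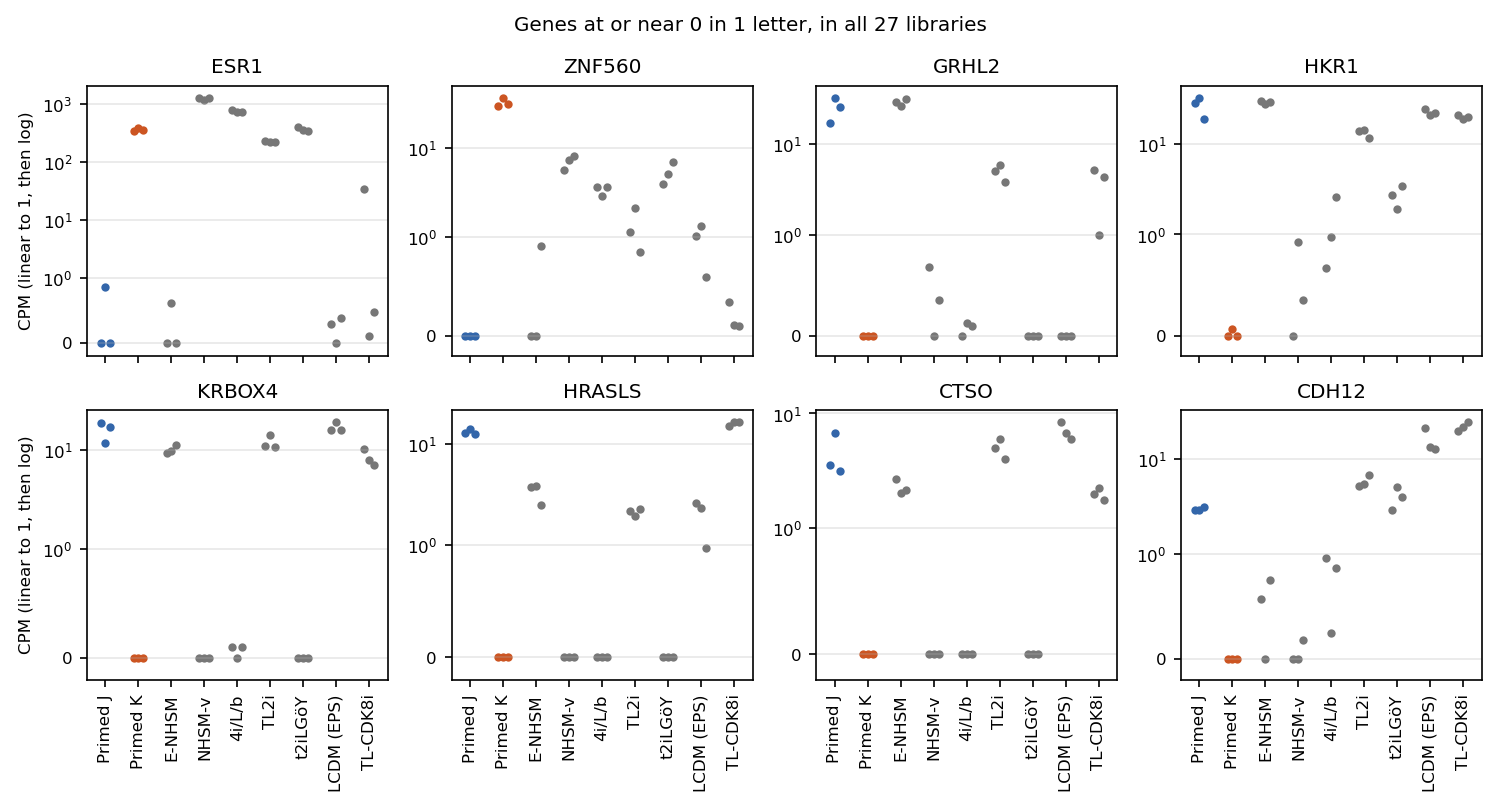
Levels of ESR1 and of the 7 genes at or under 3 counts in every library of 1 letter, in each of the 27 libraries (blue, J; orange, K; grey, protocols), in CPM on an axis that is linear up to 1 and logarithmic above. KRBOX4, HRASLS and CTSO are at or near 0 in K, NHSM-v, 4i/L/b and t2iLGöY and detected in J and the other 4 protocols, whereas ZNF560 is highest in K.

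STAT3, the transcription factor downstream of LIF, had higher counts in K too, of the gene or a transgene, with 100, 102 and 122 CPM in J and 175, 216 and 184 CPM in K (log2 fold change 0.82 ± 0.12 SE, adjusted p = 0.001). The letters did not overlap, as in 467 of the 469 called genes. Its level was 559 to 599 CPM in NHSM-v, 349 to 364 CPM in 4i/L/b, 762 to 789 CPM in TL2i and 293 to 303 CPM in t2iLGöY. It was 145 to 161 CPM in E-NHSM and LCDM (EPS) and 258, 155 and 173 CPM in TL-CDK8i libraries 1, 2 and 3. Of 11 tested genes of the JAK-STAT3 list, 4 were higher in K and 0 lower, against 2.03% higher and 1.7% lower over all genes (DESeq2: 5 and 0; unadjusted p under 0.05: 7 and 0), with a median log2 fold change of 0.75. The signal transducer IL6ST rose by 0.82 (adjusted p = 0.019), the LIF receptor LIFR by 0.67 (adjusted p = 0.042) and the kinase PIM1, a STAT3 target, by 0.55 (adjusted p = 0.0055). SOCS3, the feedback inhibitor of the pathway, was 23.3, 25.4 and 37.9 CPM in J and 57.8, 43.7 and 44.3 CPM in K, with an adjusted p of 0.068. JAK1 and JAK2, the kinases at the receptor, had log2 fold changes of 0.03 and 0.01. Of the 4 calls, only that of STAT3 held in every alternative run gene by gene, and 1 gene was called without K2 and 2 without K3.

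The core pluripotency list held 20 tested genes, of which 6 were higher in K and 0 lower, against 2.03% higher and 1.7% lower over all genes (DESeq2: 7 and 0; unadjusted: 7 and 1). SOX2 was 214, 229 and 225 CPM in J and 303, 319 and 337 CPM in K, a fold of 1.43 (adjusted p = 0.0027). PRDM14, a repressor of differentiation genes, was 252, 203 and 231 CPM in J and 354, 307 and 314 CPM in K. TRIM71, LIN28B and LIN28A, which act around the let-7 miRNAs, rose by 0.73, 0.50 and 0.33 on the log2 scale, and SALL4 by 0.35. The letters did not overlap in any of these genes, as in 467 of the 469 called genes. POU5F1, NANOG, TDGF1 and DNMT3B did not pass the test, with log2 fold changes of -0.13, 0.12, -0.02 and 0.06. The median over the 20 genes was 0.11, against 9.86e-06 over all genes tested. Between 4 and 6 members were called when any 1 library was left out.

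Of 17 tested genes of the primed-state list, 4 were higher in K and 0 lower, against 2.03% higher and 1.7% lower over all genes (DESeq2: 4 and 0; unadjusted: 7 and 1). FGF2, the growth factor that primed cells need, was 173, 161 and 104 CPM in J and 241, 230 and 276 CPM in K (log2 fold change 0.76, adjusted p = 0.0063). The Wnt receptor gene FZD7 rose by 0.50 on the log2 scale and the surface protein gene CD24 by 0.29. OTX2 and ZIC2 had values of -0.34 and -0.04 and did not pass. Without K3 only 2 members were called. Among 16 tested targets and feedback inhibitors of MEK-ERK signalling, 4 rose and 2 fell (DESeq2: 5 and 2; unadjusted: 7 and 2), against 2.03% higher and 1.7% lower over all genes. The phosphatase DUSP4 rose by 1.10 on the log2 scale, the cyclin CCND1 by 0.61, SPRY4 by 0.50 and PHLDA1 by 0.44, whereas EGR1 and ETV4 fell, at -0.44 and -0.39. DUSP6 and SPRY2 did not pass, at -0.15 and 0.03. The number of rises was 2 without J2, 2 without K1, 2 without K2 and 2 without K3, against 6 without J3.

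Of 26 tested genes of glycolysis and of the response to hypoxia, 0 were higher and 9 lower in K, against 2.03% higher and 1.7% lower over all genes (DESeq2: 0 and 12; unadjusted: 1 and 16), and the median log2 fold change was -0.23. LDHA, which converts pyruvate to lactate, was 1110, 1230 and 965 CPM in J and 395, 529 and 488 CPM in K (log2 fold change -1.24 ± 0.10 SE, adjusted p = 1.3e-06). PFKFB4, which makes an activator of the glycolytic enzyme phosphofructokinase, was 66.3, 86.4 and 89.1 CPM in J and 24.1, 48 and 30.3 CPM in K. The glucose transporter SLC2A1 was 1200, 1290 and 1260 CPM in J and 679, 820 and 873 CPM in K. ENO2, ALDOC, PFKP and TPI1, enzymes of the pathway, had log2 fold changes of -1.16, -0.92, -0.69 and -0.41, the mitophagy gene BNIP3 one of -0.64 and GAPDH one of -0.20, and all 6 passed the test. Other enzymes did not pass, with values of -0.25 for ALDOA, -0.21 for PGK1, -0.17 for PKM, -0.12 for ENO1 and 0.17 for HK2. Of the hypoxia targets, VEGFA and CA9 had values of -0.49 and -0.31, and ADM and EGLN3 had values of 0.79 and 0.27. None of these 4 passed the test, and 5 of the 26 genes had a value above 0. Only 4 members were called without J2, 4 without K1 and 4 without K3.

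LDHA differed among the protocols too. Its mean was 1630 CPM in E-NHSM and 971 CPM in TL2i, 442 CPM in TL-CDK8i, 286 CPM in LCDM (EPS), 208 CPM in 4i/L/b, 144 CPM in NHSM-v and 101 CPM in t2iLGöY. J was thus nearest to TL2i and K nearest to TL-CDK8i in the level of this gene.

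Adhesion genes moved in both directions. CDH1, the E-cadherin of epithelial colonies, was 80.7, 108 and 98.3 CPM in J and 30.6, 45.8 and 51.4 CPM in K (log2 fold change -1.18 ± 0.19 SE, adjusted p = 0.0018), and CLDN7, a tight junction protein, had a value of -1.93. CDH1 was 217 to 244 CPM in E-NHSM, 22.9 to 36.4 CPM in TL2i and 9.47 to 26.8 CPM in TL-CDK8i, at most 3.04 CPM in 4i/L/b, LCDM (EPS) and NHSM-v, and had 0 counts in t2iLGöY. CDH2, N-cadherin, was 230, 200 and 200 CPM in J and 358, 299 and 312 CPM in K, and the integrin subunit ITGB1 rose by 0.30. These were all of edgeR's calls among 16 tested adhesion genes, against 2.03% higher and 1.7% lower over all genes, whereas DESeq2 called 2 higher and 3 lower. The calls of CDH1 and CDH2 held when any 1 library was left out. That of CLDN7 was lost without J1, J2, K1, K2 or K3, and that of ITGB1 without J1, J2, K1 or K3. The epithelial keratin KRT8 and the junction protein TJP1 did not pass, at -0.10 and 0.17. Of 10 tested genes of the Hippo pathway and its targets, 5 were higher in K and 0 lower, against 2.03% higher and 1.7% lower over all genes (DESeq2: 5 and 0; unadjusted: 7 and 0). They were the YAP target F3 (1.06), the kinase LATS2 (0.66), AJUBA (0.64), and the coactivators WWTR1 (0.56) and YAP1 (0.36), all as log2 fold changes. Without K2 3 of them were called, and without K3 1 was.

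In the list of fibroblast and stromal genes, 0 of 17 were higher and 4 lower in K, against 2.03% higher and 1.7% lower over all genes (DESeq2: 0 and 4; unadjusted: 1 and 5). The called members were S100A4, COL6A2, COL1A1 and COL6A1, and without K3 2 were called. The median log2 fold change of the 17 tested genes was -0.08, with 6 above 0 and 11 below. COL1A2, FN1 and SPARC did not pass, at -0.12, -0.08 and -0.04, nor did COL3A1 and PDGFRB, at 0.26 and 0.28. COL1A1, a chain of collagen type I, was 1600, 1540 and 1810 CPM in J and 1210, 653 and 947 CPM in K. The summed level of the 19 members found was 5270 to 6100 CPM in J and 3810 to 6070 CPM in K, and LUM and DCN, markers of fibroblasts, were at or under 3 counts in all 6 libraries. In bulk RNA, fewer cells of a type and less RNA per cell cannot be told apart. Of 14 tested imprinted genes, 2 were higher and 2 lower in K, against 2.03% higher and 1.7% lower over all genes (2 and 2 by DESeq2, 4 and 2 unadjusted). Beside NNAT, PEG3 (0.65) and PEG10 (0.51) were called upwards and L3MBTL1 (-0.74) downwards, whereas MEST and GRB10 had values of -0.03 and did not pass. The calls of PEG3, PEG10 and L3MBTL1 were each lost when at least 1 library was left out. Among 18 splicing and RNA-binding factors, 0 were higher and 4 lower in K, against 2.03% higher and 1.7% lower over all genes (DESeq2: 0 and 6; unadjusted: 0 and 7), SRSF11 (-0.38), HNRNPH1 (-0.27), DDX5 (-0.23) and HNRNPA2B1 (-0.20). The count was 0 without J1, 0 without J2, 1 without K1, 0 without K2 and 3 without K3.

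**Figure D3:**
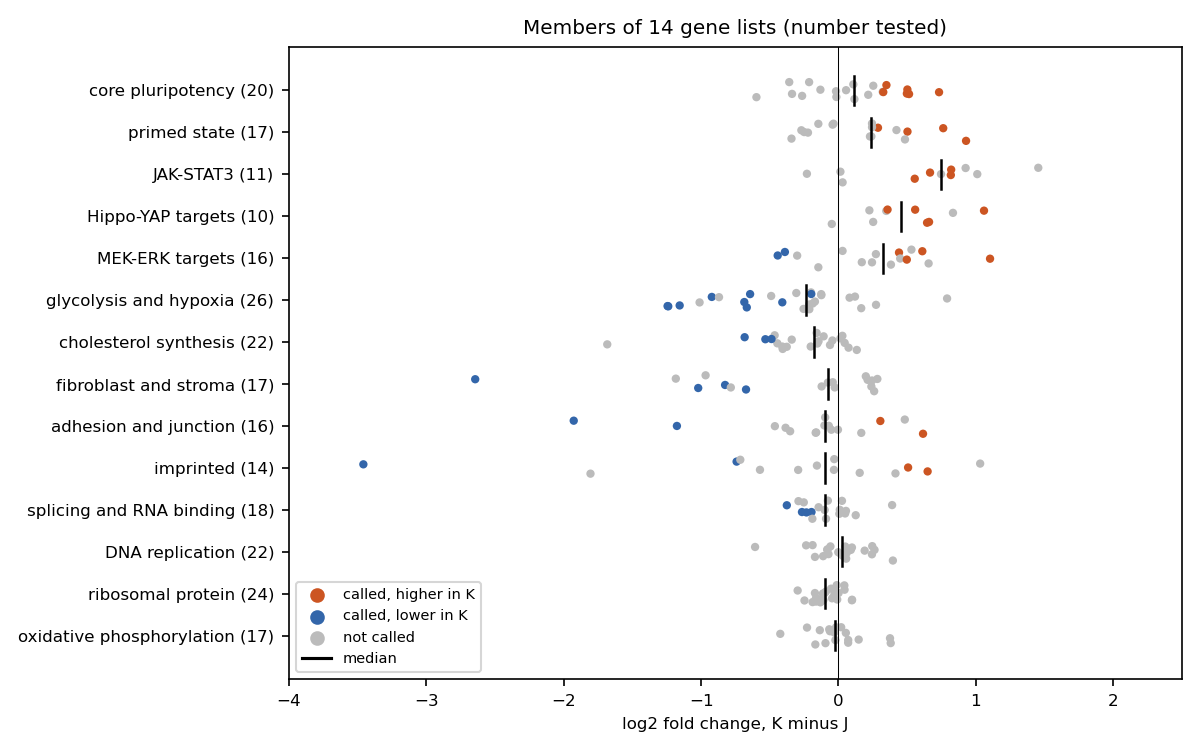
Log2 fold change from J to K of every tested member of 14 gene lists (orange, called and higher in K; blue, called and lower; grey, not called; bar, median of the list). Calls lie to the right of 0 in the core pluripotency, primed state, JAK-STAT3 and Hippo lists and to the left in the glycolysis, cholesterol synthesis, stromal and splicing lists, with 0 calls by edgeR in DNA replication, ribosomal protein and oxidative phosphorylation genes.

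No member was called by edgeR in 12 of the tested lists, namely DNA replication, ribosomal protein, oxidative phosphorylation, replication-dependent histone, DNA methylation, HOX, interferon response, germ cell, neural ectoderm, neural crest, primitive streak and mesoderm, and trophoblast and amnion. Of their 125 genes, 8 were higher and 13 lower at an unadjusted p under 0.05 (16.8%, against 17.1% of all genes tested), and DESeq2 called 0 higher and 1 lower. The summed level of the mesoderm list was 126 to 191 CPM in J and 94.4 to 117 CPM in K, and that of the endoderm list was 69.2 to 102 CPM in J and 47.6 to 63.6 CPM in K. CER1 alone made up 14.2 to 56.6 CPM of the endoderm sum in J and 1.38 to 2.22 CPM in K. The trophoblast markers CDX2, CGA and ELF5, the mesoderm markers MESP1 and MSGN1, the endoderm marker HNF4A and the neural marker SOX1 were at or under 3 counts in every primed library. Other members of these lists had enough counts to be tested, among them VTCN1, KRT7, EOMES, MIXL1, FOXA2, AFP, NES and PAX6. None of these passed the test. The summed level of the trophoblast and amnion list was 143 to 183 CPM in J and 150 to 166 CPM in K. That of the neural ectoderm list was 2530 to 2660 CPM in J and 2350 to 2590 CPM in K. The part of cells of these lineages in the differences between the letters was not tested.

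When the genes were put in the order that RefSeq gives for assembly T2T-MMU8v2.0, one long run of neighbours was higher in K. The order was used for neighbourhood only, and 12097 of the 12559 tested symbols (96.3%) matched. A window of 11 genes was moved along the 9363 matched genes whose average log2 CPM reached 3, and its median log2 fold change reached 0.3 in either direction in 69 stretches. Counted by the genes at the middle of such windows, the longest stretch had 36 genes, from TRIAP1 to MPHOSPH9, and the next longest had 12 and was lower in K. The run was picked for its values, so its differences are a description without a test. Its median log2 fold change was 0.46 (quartiles 0.33 and 0.72), 1.38-fold, and 34 of 36 genes were above 0. Of the 36 genes, 13 were called higher, with 2.03% of all genes tested called in that direction. They include MLEC (0.72), UNC119B (0.90), KNTC1 (0.91), DENR (0.91), VPS33A (0.81), CLIP1 (0.67), KDM2B (0.62) and DIABLO, which blocks inhibitors of apoptosis and was 101, 95.2 and 83.1 CPM in J and 163, 158 and 153 CPM in K. The 20 genes before the run had a median of 0.04 and the 20 after it one of -0.10. At the far edge CDK2AP1 and SBNO1 still had values of 0.38 each, and the next gene, KMT5A, had -0.20.

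The rise was alike in the 3 K libraries, all of which had the run above both flanks. Relative to the J mean, the median of the 36 genes was 0.50 to 0.58 in the K libraries and -0.04 to 0.03 in the J libraries. It was -0.03 to 0.05 in E-NHSM, and between -0.39 and -0.08 in the 15 libraries of LCDM (EPS), t2iLGöY, TL2i, NHSM-v and 4i/L/b. In TL-CDK8i it was 0.30 to 0.38, but the flanking genes were there at 0.39 to 0.45 before the run and 0.49 to 0.63 after it, so the run was not above its surroundings. In K the flanks were at 0.02 to 0.11 and -0.10 to 0.05. The median in K against J stayed between 0.45 and 0.53 when any 1 library was left out. DNA copy number was not measured.

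**Figure D4:**
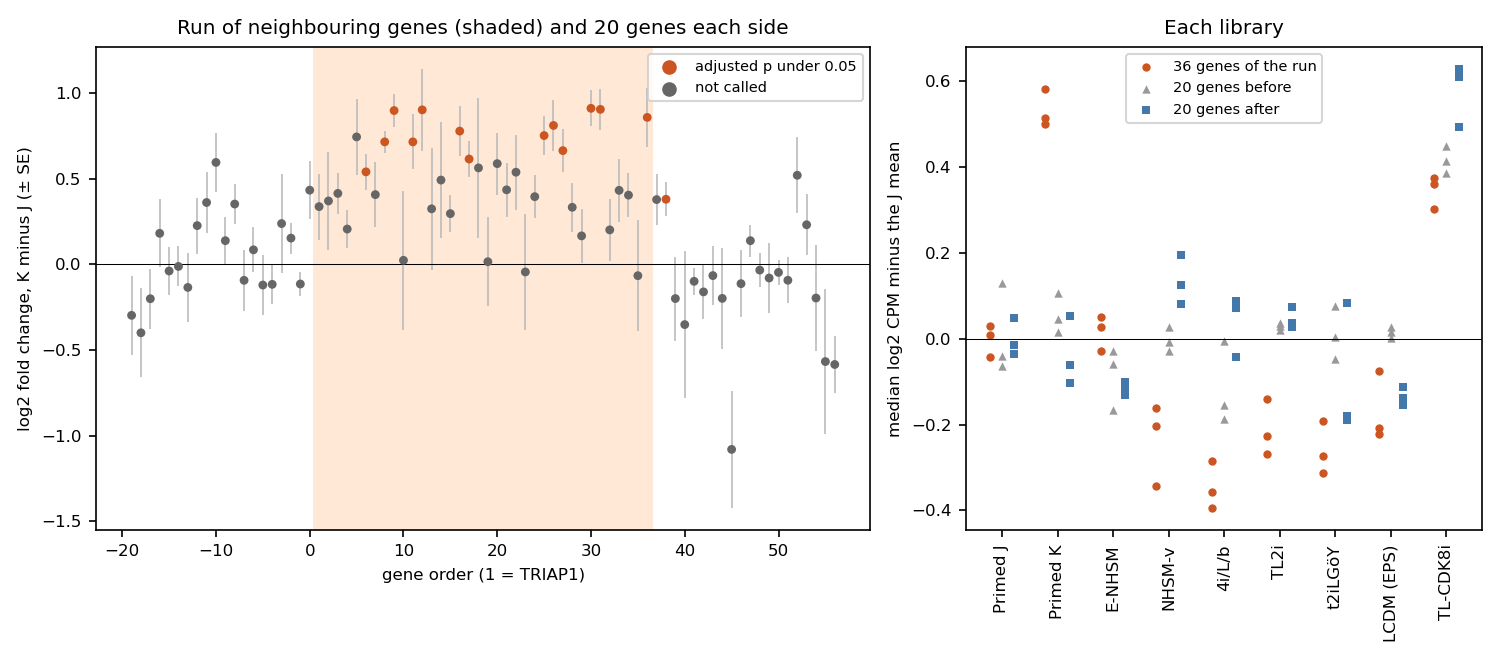
Left, log2 fold change from J to K with its SE for the 36 genes of the run (shaded) and 20 genes on each side, in RefSeq gene order; right, median log2 CPM relative to the J mean of the run and of both flanks in each of the 27 libraries. In the K libraries the run lies at 0.50 to 0.58 while both flanks lie between -0.10 and 0.11, and in TL-CDK8i the run (0.30 to 0.38) lies below its flanks.

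ARFRP1 and LIME1, with log2 fold changes of -1.80 and -2.15, are neighbours too, with ZGPAT between them at -1.16 (adjusted p = 0.023). The genes next to this group, RTEL1 and DNAJC5, had values of -0.44 and 0.32 and did not pass. Neighbouring genes that overlap can share reads, and the counts do not show how such reads were assigned.

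To ask whether genes that differ between the letters are those that the protocols move, the protocols LCDM (EPS), t2iLGöY, TL2i, NHSM-v and 4i/L/b (5 protocols) were compared with E-NHSM, a comparison with no primed library in it. The labels name no line, so a difference between starting cultures cannot be told apart here from an effect of the protocols. Of 14559 genes tested in this comparison, 10217 (70.2%) were called, 35.3% higher and 34.9% lower in the mean of the 5 protocols. Among the 12520 genes tested in both comparisons, 403 of the 469 called between the letters were called (85.9%), against 73.8% of all 12520, and the 403 were 4.36% of the 9240 genes called there. For genes whose average log2 CPM reached 3, the shares were 85.6% of 457 and 77.2% of 9693. The genes called between the letters also had a lower pooled SD within protocols, a median of 0.146 against 0.199 for all genes tested. A low spread lets a gene pass either test more easily, so the higher share alone does not show that protocols move these genes more. Directions in the mean of the 5 protocols were evenly split. Of the 255 genes higher in K, 112 were higher and 110 lower in the 5 protocols, and of the 214 genes lower in K, 87 were higher and 94 lower. LDHA and NNAT, for example, had log2 fold changes of -2.74 and -2.72 in the mean of the 5 protocols, the direction they took in K. NNAT was nevertheless higher in LCDM (EPS) than in E-NHSM, with means of 457 and 185 CPM. SOX2 and FGF2 had values of -1.74 and -2.86, opposite to K. CDH2 (4.48), STAT3 (1.32) and IL6ST (2.26) were higher in the mean of the 5 protocols, as in K. STAT3 was much alike in LCDM (EPS) and E-NHSM, with means of 154 and 151 CPM. CER1 and F3, which differed between the letters, did not pass there, at -0.20 and 0.19.

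The called genes also varied more among the protocols, where a difference between starting cultures again cannot be told apart from a protocol effect. The SD of the 7 protocol means of log2 CPM had a median of 0.641 over the 469 genes and of 0.525 over all genes tested. Among genes whose average log2 CPM reached 3 it was 0.616 and 0.448. The pooled SD within protocols was 0.146 for the called genes and 0.199 for all. Within the letters the corresponding values were 0.142 and 0.268 in J and 0.126 and 0.203 in K, where a low spread is part of what makes a gene pass the test.

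On an axis from the mean of E-NHSM (0) to the mean of the 5 protocols (1), taken over 14800 genes, the primed libraries lay between them. J1, J2 and J3 were at 0.238, 0.241 and 0.221, and K1, K2 and K3 at 0.285, 0.253 and 0.264. The letters did not overlap, and K was nearer to the 5 protocols by 0.0336 (two-sided exact permutation p = 0.1, the smallest that 3 against 3 allows). On the same axis the TL-CDK8i libraries spanned 0.574 to 0.643, the TL2i libraries 0.845 to 0.872 and the others of the 5 protocols 0.993 to 1.08.

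**Figure D5:**
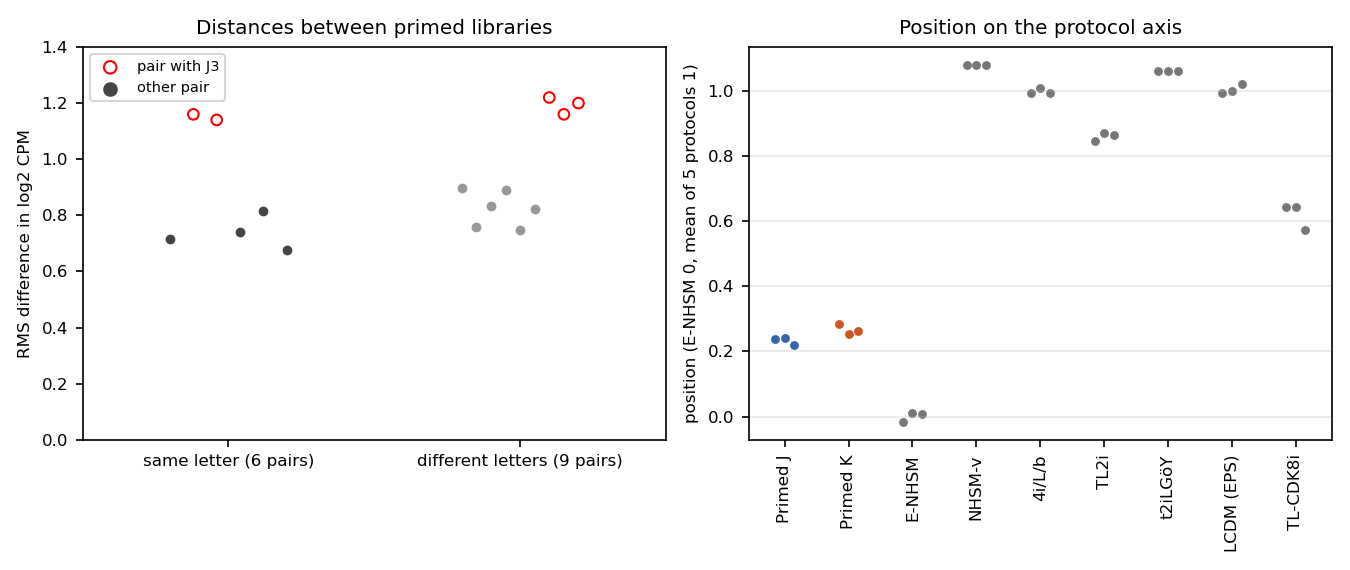
Left, root mean square difference in log2 CPM between the primed libraries, for 6 pairs of the same letter and 9 pairs of different letters (open red circles, pairs with J3); right, position of all 27 libraries between E-NHSM (0) and the mean of 5 protocols (1). Pairs with J3 lie at 1.14 to 1.22 and all others at 0.677 to 0.898, and the letters sit close together between 0.221 and 0.285.

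The most variable well-expressed genes that did not differ between the letters varied through J3. They were CEP97, GLIPR1, LACTB, DTD2, TBC1D12 and FAM199X, chosen for their variance over the 6 libraries. GLIPR1, for instance, was 17.9 and 17.3 CPM in J1 and J2, 1.29 CPM in J3 and 17.9, 19.1 and 18.4 CPM in K. J3 was the lowest of the 6 libraries for each of these genes.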

How the data were processed

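RNA was measured by directional mRNA sequencing with single reads in 27 libraries, 6 of them primed. The authors deposited raw counts of reads per gene symbol (17967 symbols), 1 column per library, without normalization or pooling. The submitters' processing notes name bcl2fastq, cutadapt, HISAT2 and HTSeq. Versions, genome build and annotation are not given in the sources used here. How reads shared by similar or overlapping genes were counted is not stated. Each column was matched to its group by name, and no other column was present (0 unused). The primed columns show the group and a letter only, so K and J were compared as lettered. Nothing says that the libraries came from separate cultures, and p-values measure only the spread between these libraries, which may be technical. Replicates within letters differed by more than sampling noise (chi-square per gene 9.19 to 17.2), so none was counted as a duplicate.

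The fits were made in R 4.3.3 with the packages limma 3.58.1 and edgeR 4.0.16, which fitted the 6 primed libraries (filterByExpr, TMM, quasi-likelihood test, Benjamini-Hochberg adjustment over 12559 genes, threshold 0.05). Standard errors are the absolute log2 fold change divided by the square root of F. Levels are CPM with TMM factors over all 27 libraries, and log2 CPM used a prior count of 2. Counting intervals are exact Poisson intervals at 95%, and they and the floors cover counting error only. Depth ranged from 7111886 to 20760914 counts per library, and the floor of 3 counts was 0.207 to 0.429 CPM in the primed libraries.

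The members and the 42 gene lists (685 symbols, 633 found, 517 tested) were chosen with earlier results of these data known. The genes described are the 12 largest rises and falls among called genes with no overlap between letters and a mean log2 CPM of at least 3 (mean of the libraries' log2 values), up to 4 called members of each list by size, 10 pluripotency and primed-state genes whether called or not, and the 6 most variable genes not called. Genes at or under 3 counts in 1 letter, SOCS3, other list members, the run of neighbours and ZGPAT with its neighbours were added after their values were seen. Some genes are not reported here. The list of the mitochondrial genome matched 0 symbols. On simulated counts for 3 against 3 libraries over 12219 genes, 85% of genes changed by 2 and 68% of those changed by 1 on the log2 scale were recovered, and 3.16% of calls were unchanged genes. For the 5 protocols against E-NHSM, over 14325 genes, the values were 98%, 85% and 3.17%. Changes were simulated only in genes above a count threshold, so the shares recovered do not cover genes of low counts. Alternatives were upper-quartile scaling, DESeq2 1.42.0, no filter, a filter of at least 10 counts per library, a minimum log2 fold change of 1, all 27 libraries in 1 fit, a replicate block, leaving out each library, a prior count of 0.5, 500 genes of highest variance, and thinned counts.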

Additional observations from a re-analysis of the deposited data

Results flagged for a closer look

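In 5 of 106 values examined over the 6 primed libraries, 1 library lay far from the other 5, and in each case it was J3. CEP97 was 1.43 CPM in J3 and 12.3 to 22.7 CPM in the other libraries. GLIPR1 was 1.29 CPM, against 17.3 to 19.1 CPM. LACTB was 1.43 CPM, against 9.6 to 13.8 CPM. TBC1D12 was 2.29 CPM, against 15.5 to 22.8 CPM, and FAM199X was 1.86 CPM, against 12.6 to 16.9 CPM. All 5 genes had been chosen for their high variance, and chance flags about 1 in 20 groups.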

How the results depend on the processing

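The number of genes called between K and J was 746 with DESeq2 (392 higher and 354 lower in K), 823 without a filter on low counts (455 and 368), 1605 with all 27 libraries in 1 fit (905 and 700), and 89 with a minimum log2 fold change of 1 (25 and 64). Of the 469 genes, 463 were among the 746, 469 among the 823 and 444 among the 1605. Leaving out each library gave 184 to 595 calls, with 98 to 319 higher and 86 to 276 lower, 36 to 81 called members of the gene lists (75 with all libraries), and 50 to 88 of the 92 called genes described. No call among these 92 changed direction in any alternative. Among genes that were not called, leaving out 1 library moved the log2 fold change of TDGF1 between -0.0897 and 0.0589 (without J1), that of ZIC2 between -0.109 and 0.0059 (without J1; 0.0040 without K1), that of DTD2 between -0.649 and 0.228 (without J1; 0.17 without J2, 0.12 without K3, and 0.22 with the replicate block), and that of TBC1D12 between -0.00078 (without J3) and 0.876, each with a change of sign.

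The digits of the column names did not pair the libraries. Deviations from the letter means correlated at -0.0269, 0.0184 and -0.0205 between libraries of the same digit, and J2 and K2 were the only pair of the same digit that correlated best with each other. A fit with the replicate block called 479 genes, of which 423 were among the 469. For the 5 protocols against E-NHSM, a minimum log2 fold change of 1 gave 5134 calls and 40.9% of the genes called between the letters, against 33.3% of all genes tested in both, and leaving out 1 library gave 9671 to 10458 calls and shares of 81.5% to 86.6%. The step between the letters on the protocol axis was 0.0249 to 0.0408 when 1 library was left out, and the medians of the spread among protocols kept their order in both alternatives. Depth differed between the letters, and falls of genes near 3 counts rest on few reads.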

Other observations

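Genes of further groups differed in small numbers. Cholesterol synthesis held 0 rises and 3 falls among 22 tested genes, where 2.03% of all genes rose and 1.7% fell (DESeq2: 0 and 4; unadjusted: 0 and 7), among them the enzymes MVD (log2 fold change -0.68) and SC5D (-0.49). In fatty acid synthesis, the regulator SREBF1 and the desaturase FADS2 fell, with log2 fold changes of -0.73 and -0.44. Of the chaperones of the endoplasmic reticulum, HSPA5 and CALR fell, at -0.31 and -0.29, whereas SEL1L, which acts in the degradation of misfolded proteins, rose by 0.44. ATF4, the transcription factor of amino acid stress, and SLC3A2, a subunit of amino acid transporters, fell, at -0.33 and -0.50. The calls of CALR and SLC3A2 held in every alternative run gene by gene, which leaves out the minimum log2 fold change of 1, and each of the others was lost when at least 1 library was left out.

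In the Notch list, LFNG, which modifies the receptors, and the ligand gene JAG1 rose by 1.61 and 0.58. In the BMP list, ID4 rose by 1.66 and the inhibitory SMAD7 fell, at -0.55. In the Nodal and Activin list, of which SMAD7 is also a member, SKIL, a repressor of SMAD signalling, rose by 0.60. STRA6, the cellular receptor for retinol-binding protein, was 43.3, 38.7 and 39.7 CPM in J and 16.6, 20.1 and 13.5 CPM in K. Among 374 tested genes with a ZNF symbol, a set looked at after the values were seen, 11 were higher in K and 0 lower (15 and 2 by DESeq2, 34 and 19 unadjusted). That is 2.94% higher, where 2.03% of all genes were higher and 1.7% lower. At an unadjusted p under 0.05, 9.2% of all genes were higher and 7.85% lower. The 11 genes range from ZNF229 (0.35) to ZNF560. In the remaining lists edgeR called 1 or 2 genes. The Wnt target TNFRSF19 rose by 0.77, the p53 target ZMAT3 by 1.21, the chaperone HSP90AA1 by 0.33, the redox enzyme TXNRD1 by 0.36 and the topoisomerase TOP2A by 0.34, while GCLC, of glutathione synthesis, had a log2 fold change of -0.49. Of the naive-state list edgeR called IL6ST among 7 tested genes (DESeq2: 1 higher and 1 lower), of the immediate early list EGR1 among 16 (DESeq2: 0 and 2), and of the apoptosis list DIABLO among 19 (DESeq2: 2 and 0). Over all genes tested, edgeR called 3.73%. Of the genes in this paragraph, the calls of SKIL, STRA6, TOP2A, DIABLO, EGR1 and ZNF560 held in every alternative run gene by gene. Those of LFNG, ID4, JAG1, SMAD7, TNFRSF19, ZMAT3, TXNRD1, GCLC, IL6ST and HSP90AA1 were lost when at least 1 library was left out, and that of HSP90AA1 also with upper-quartile scaling.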
